A study of Mus musculus with 6 samples.

Results

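The 10 genes described here act in cAMP and calcium signalling, which drives acid secretion. They encode the protein kinase A subunits Prkaca, Prkacb, Prkar1a and Prkar2a, the anchoring protein Akap10 and the phosphodiesterases Pde4b and Pde4d. The others are the kinase subunit Camk2g, the calcium channel Itpr3 and the phosphatase inhibitor Ppp1r1b. All 10 were chosen by symbol. The arrays measured RNA of whole mucosa, so the cells that held these transcripts are not known. All 10 genes were on the array, with 29 of its 45281 probes. The study compared the lining of the stomach with and without Lasp1, an actin-binding protein. It used Lasp1 knockout mice and wild type mice, both of the C57Bl/6Ncr strain and 3 months old, and took total RNA from the fundic mucosa for 3 Illumina arrays of each genotype. The labels give neither the allele nor how it was made, nor whether each array held 1 mouse, so the p-values below speak only to the spread among these 6 samples.

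In the parietal cell, histamine raises cAMP through its H2 receptor, and acetylcholine raises calcium through the M3 receptor. cAMP releases the catalytic subunits of protein kinase A from their regulatory subunits, anchoring proteins hold the enzyme near its substrates, and phosphodiesterases break cAMP down. Lasp1 is among the proteins phosphorylated downstream of cAMP in this cell.

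Values are the authors' probe intensities, scaled so that the median probe of each array reads 1000, with background still in them. The brightest of 26 Y-linked probes read 1061 to 1212 on the 6 arrays and served as the background limit. This takes the Y-linked genes as not expressed in these samples, which was not tested. The brightest probe of every one of the 10 genes lay above this limit on all 6 arrays. Of the 29 probes, 16 did so on all arrays, 3 on some and 10 on none. Probes of different genes have different efficiencies, so intensities are compared between arrays and not between genes. The fundic tissue carried its defining acid-secreting markers: 9 of 10 parietal genes were above the limit on all arrays. The summed intensity of the 10 was 1304088 to 1504827 on knockout arrays and 1285150 to 1408332 on wild type arrays. Atp4a, Atp4b and Ckb made up most of this sum, and some dimmer genes varied more. Kcne2 read 11971 to 19193 on knockout arrays and 11588 to 25486 on wild type arrays. The 5 listed mast cell genes, 3 of them above the limit on all arrays, had sums that separated the genotypes. These were 18617 to 31115 on knockout arrays and 8341 to 13144 on wild type arrays. Single probes with separate groups made up 7.19% of all kept probes. The part of mast cells in the differences below was not tested. In whole mucosa, fewer cells of a type and less RNA per cell cannot be told apart. Pancreatic acinar transcripts, summed over 9 listed genes, read 145884, 97149 and 393644 on knockout arrays, against 209359, 227399 and 5107483 on wild type arrays. They were highest on wild type replicate 3. On knockout replicate 3, Cela2a, a pancreatic elastase, read 58913, against 1369 and 2400 on the other knockout arrays. Cpa1, Cpb1, Cel, Amy2a5, Prss2 and Ctrb1 were also highest there among the knockout arrays. Cela1 (30693, against 36302 and 23883) and Zg16 (9651, against 38479 and 17105) were not. On wild type replicates 1 and 2 the sum came mainly from Zg16, Cela1 and Amy2a5, while Prss2 read 853 and 790. Squamous transcripts were high on knockout replicate 1 (590633) and wild type replicate 2 (357583), against at most 18015 elsewhere. The gastrin gene Gast also varied widely, with 5003, 21207 and 861 on knockout arrays, against 43741, 35100 and 1354 on wild type arrays. Whether the arrays differed in the region of stomach sampled was not tested. Lasp1 itself read 88521, 111002 and 89823 on its brightest probe in knockout mucosa, against 270957, 275068 and 177315 in wild type mucosa. Those groups did not overlap, but the probe did not pass the test over all probes (log2 difference -1.30, SE 0.21, limma adjusted p = 0.994). The other Lasp1 probes did not behave alike. ILMN_2879745 also had separate groups (log2 difference -1.59, SE 0.34). ILMN_2596851 had groups that overlapped, with 877 to 1156 in knockout mucosa and 970 to 1483 in wild type mucosa (log2 difference -0.21, SE 0.19). Array weights (-1.45, limma adjusted p = 0.00222) and cyclic loess (-1.48, limma adjusted p = 0.0491) each brought the brightest probe past the threshold. With array weights 8.02% of all kept probes passed, in a fit that gave wild type replicate 2 a weight of 38.8.

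The catalytic subunits of protein kinase A were measured well above background. Prkaca, the main catalytic subunit, read 18352, 18320 and 18059 in knockout mucosa, against 19948, 15761 and 11785 in wild type mucosa. The knockout arrays were tightly grouped and lay inside the wide range of the wild type arrays. The log2 difference, knockout minus wild type, was 0.24 (SE 0.20, 95% interval -0.23 to 0.70). A second Prkaca probe, ILMN_2833376, read 12455, 15991 and 14018 in knockout mucosa, against 12125, 12285 and 11283 in wild type mucosa. On this probe the groups did not overlap, with the lowest knockout array at 12455 and the highest wild type array at 12285. Its log2 difference was also 0.24 (SE 0.13, interval -0.07 to 0.56), with an exact two-sided permutation p of 0.1, the smallest that 3 against 3 arrays can give, and a limma adjusted p of 0.994. The separation ended after quantile normalization, where the log2 difference of ILMN_2833376 was 0.07. The Prkaca probes thus had the same mean difference and different patterns over the arrays.

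Prkacb, the other catalytic subunit of the pair, read 54565, 37797 and 40537 in knockout mucosa, against 47273, 38121 and 34522 in wild type mucosa. Both the highest and the second lowest array were knockout arrays, and the groups overlapped. The log2 difference of Prkacb was 0.14 (SE 0.19, interval -0.31 to 0.59).

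The regulatory subunits keep the kinase silent until cAMP binds them. Prkar1a, the type I alpha subunit, read 35150, 32882 and 31206 in knockout mucosa, against 38932, 28590 and 24850 in wild type mucosa. As for Prkaca, the knockout arrays fell within the span of the wild type arrays, and the log2 difference was 0.13 (SE 0.18, interval -0.31 to 0.56). The other Prkar1a probe, made from a cDNA clone, was at background on all 6 arrays. Prkar2a, the type II alpha subunit, read 1616, 1622 and 1516 in knockout mucosa, against 1570, 1754 and 1498 in wild type mucosa. It was dim, its groups overlapped, and its log2 difference of -0.02 (SE 0.12, interval -0.30 to 0.26) was the only one below 0 among the brightest probes of the 10 genes in the deposited values. Of the other Prkar2a probes, ILMN_1229722 read 975 to 1083 in knockout mucosa and 937 to 1034 in wild type mucosa and ILMN_2477624 read 713 to 811 in knockout mucosa and 739 to 852 in wild type mucosa, both at background on every array.

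**Figure D1:**
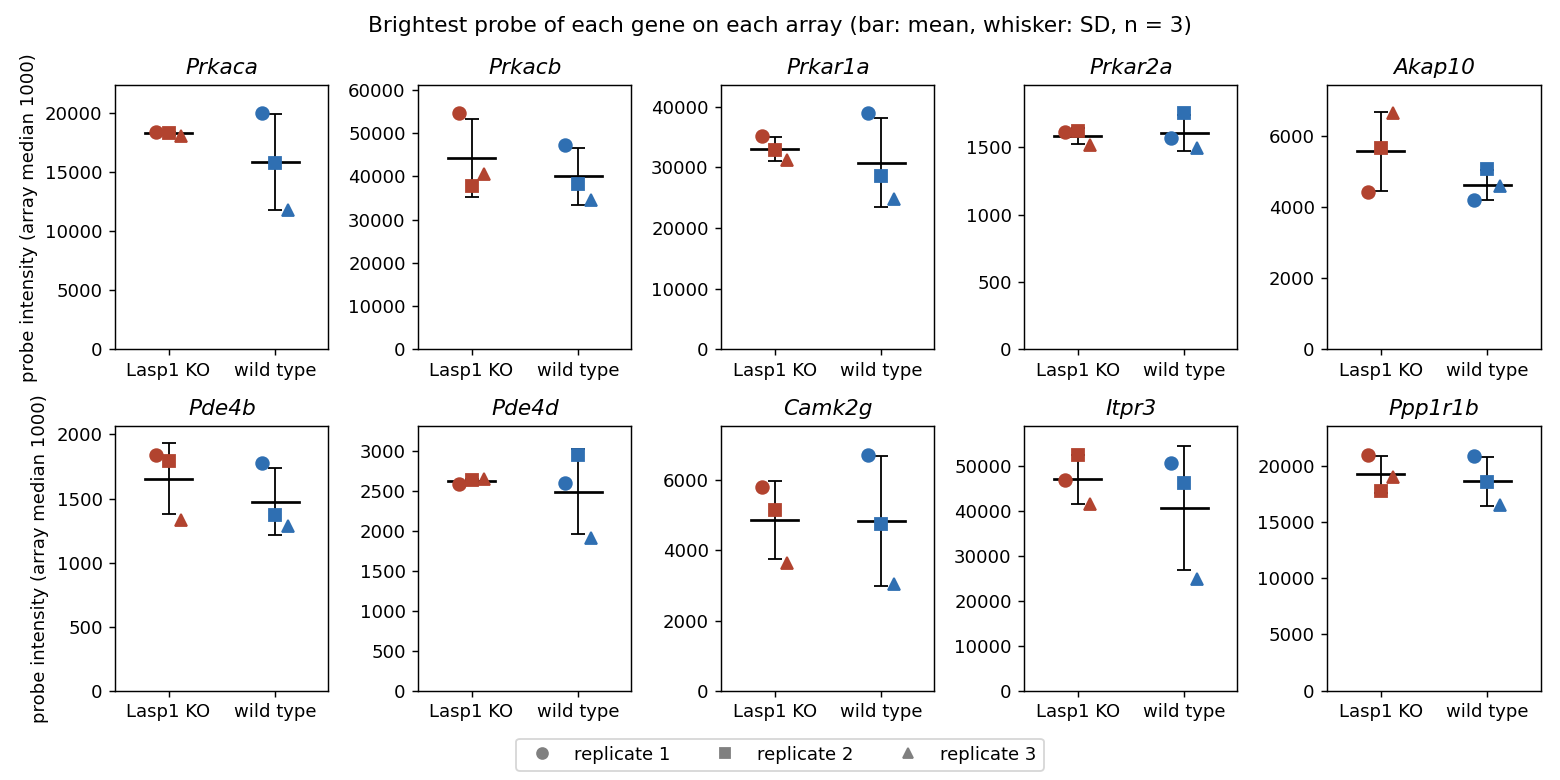
Intensity of the brightest probe of each gene (y axis, from 0, array median 1000) on the 3 Lasp1 knockout arrays (left, red) and the 3 wild type arrays (right, blue), with 1 panel per gene, bars at the mean and whiskers of 1 SD. The groups overlap in all 10 panels, and wild type replicate 3 (blue triangle) is the lowest array for 9 of the 10 genes, all but Akap10.

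Protein kinase A also acts on transcription, through the factor CREB, which binds the cAMP response element TGACGTCA. The RefSeq promoter windows of GRCm38.p6, 250 bases before to 50 after a transcript start, were searched on both strands for this palindrome and for TGACG, its first bases, which the palindrome contains on each strand. Windows were given for 8 of the 10 genes, without Camk2g and Ppp1r1b, and there were 19 of them, since several genes have more than 1 start. The full element occurred in 2 of the 19 windows, against 1.79% of all 32851 windows. Both were windows of Prkar1a that overlap and hold the same site, 49 bases upstream of one start. TGACG occurred in 7 of the 19 windows, from 5 genes, against 20.8% of all windows. The stretches below show 1 site for each of the 5 genes in capitals, as TGACGTCA or as CGTCA, which is TGACG on the other strand. They are read 5′ to 3′ on the strand of the gene. Prkaca has a further CGTCA 6 bases upstream of its start, and Prkar1a has further TGACG and CGTCA matches, which are not shown. A match is a description of letters and says nothing of binding in these samples.
Prkar1a, chr11:109650872-109650935, plus strand: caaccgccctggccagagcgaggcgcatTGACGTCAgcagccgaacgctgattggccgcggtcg
Prkaca, chr8:83972830-83972890, plus strand: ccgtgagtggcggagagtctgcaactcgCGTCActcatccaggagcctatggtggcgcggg
Prkacb, chr3:146813016-146813076, minus strand: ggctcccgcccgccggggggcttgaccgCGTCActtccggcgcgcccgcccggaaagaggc
Prkar2a, chr9:108692111-108692171, plus strand: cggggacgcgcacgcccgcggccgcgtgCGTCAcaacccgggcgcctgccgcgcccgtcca
Pde4b, chr4:102421493-102421553, plus strand: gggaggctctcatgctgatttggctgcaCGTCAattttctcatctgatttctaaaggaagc

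Akap10 encodes an anchoring protein that can hold both type I and type II protein kinase A. It read 4422, 5657 and 6635 in knockout mucosa, against 4208, 5073 and 4578 in wild type mucosa. Knockout replicates 2 and 3 exceeded every wild type value and knockout replicate 1 lay among them, and the log2 difference was 0.25 (SE 0.18, interval -0.16 to 0.67). Another Akap10 probe on a RefSeq transcript, ILMN_2645981, showed the same array on top: it read 1258, 1500 and 1819 in knockout mucosa, against 1205, 1318 and 1348 in wild type mucosa (log2 difference 0.23, SE 0.16). A probe from a cDNA clone, ILMN_2572969, did not share this order, with 1913, 1794 and 1758 in knockout mucosa, against 1960, 1668 and 1364 in wild type mucosa (log2 difference 0.15, SE 0.16), and the fourth Akap10 probe, ILMN_2898867, was at background on all arrays. Sample titles carry a number from 1 to 6 whose meaning the labels do not give, and knockout replicate 1 with wild type replicates 1 and 2 hold the numbers up to 3. Within those arrays the Akap10 log2 difference was -0.06, and within the others, knockout replicates 2 and 3 against wild type replicate 3, it was 0.42, with 0.18 when the set was a block (limma adjusted p = 0.563).

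The phosphodiesterases Pde4b and Pde4d degrade cAMP and end its signal. Pde4b was close to background. Its only probe above the limit, ILMN_2544890 from a cDNA clone, read 1844, 1789 and 1335 in knockout mucosa, against 1774, 1373 and 1283 in wild type mucosa. The groups overlapped over most of their range, and the log2 difference was 0.17 (SE 0.19, interval -0.28 to 0.61). The Pde4b probe on a RefSeq transcript, ILMN_2697552, read 792 to 875 in knockout mucosa and 791 to 921 in wild type mucosa, which is background on every array. A dim probe of the same gene, ILMN_1249295, had its knockout arrays (885 to 924) below its wild type arrays (937 to 1081), but all 6 values lay below the background limit, and it was not among the probes tested.

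Pde4d had 5 probes, of which 3 were above background on all arrays. The brightest read 2594, 2634 and 2652 in knockout mucosa, against 2602, 2958 and 1918 in wild type mucosa. The knockout arrays were nearly equal (SD 30.1, n = 3) and the wild type arrays were spread on both sides of them (SD 529, n = 3), so the mean log2 difference was 0.10 (SE 0.18, interval -0.32 to 0.51). The next probe, ILMN_1236700, read 2417, 2455 and 2201 in knockout mucosa, against 2913, 2073 and 1883 in wild type mucosa. Here too the knockout arrays sat between the wild type arrays, and the log2 difference was 0.07. The highest wild type array was replicate 2 on the brightest Pde4d probe and replicate 1 on this one, so the probes of Pde4d did not rank the arrays alike. ILMN_1235680, also of Pde4d, read 1291 to 1484 in knockout mucosa and 1158 to 1612 in wild type mucosa (log2 difference 0.04, SE 0.16). The last Pde4d probes, ILMN_1230472 and ILMN_1215021, were at background.

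On the calcium side, Itpr3 encodes the type 3 inositol trisphosphate receptor, which releases calcium from the endoplasmic reticulum. Its single probe read 46858, 52589 and 41638 in knockout mucosa, against 50728, 46330 and 24895 in wild type mucosa. All arrays but wild type replicate 3 lay between 41638 and 52589. Its log2 difference of 0.27 (SE 0.28, interval -0.39 to 0.93) was the largest of the 10, and it was -0.05 without wild type replicate 3. Within the arrays of title numbers up to 3 it was -0.05, and within the others, which set 2 knockout arrays against that wild type array, it was 0.91.

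Camk2g, the gamma subunit of calcium/calmodulin-dependent kinase II, read 5797, 5155 and 3649 in knockout mucosa, against 6734, 4756 and 3040 in wild type mucosa. As deposited it had the largest spread between arrays of the 10 genes (SD 0.43 log2 over the 6 arrays), whereas after quantile normalization Akap10 did (SD 0.34, against 0.25 for Camk2g). Both genotypes spanned most of the range of Camk2g as deposited, and its log2 difference was 0.05 (SE 0.31, interval -0.69 to 0.80). The second Camk2g probe by brightness, ILMN_1242437, read 1635, 1362 and 1089 in knockout mucosa, against 2037, 1437 and 1276 in wild type mucosa (log2 difference -0.21, SE 0.23). The brightest and the second probe thus had mean differences of opposite sign, each within its error. Of the remaining Camk2g probes, ILMN_3135323 read 1246 to 1489 in knockout mucosa and 1265 to 1593 in wild type mucosa (log2 difference -0.01, SE 0.14), and ILMN_1252615 was at background. The genes most like Camk2g over the 6 arrays, by the root mean square difference of mean-centred log2 values among 11867 other named genes, were Ets1, a transcription factor (0.026), Fam76b (0.036) and Gm26588 (0.041). Ets1 read 3939, 3362 and 2524 in knockout mucosa, against 4592, 3201 and 2048 in wild type mucosa. This likeness was taken in the deposited values, where Camk2g ran with the brightness of the arrays (given below). It was not taken after quantile normalization and is not read as joint regulation.

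Ppp1r1b encodes DARPP-32, which becomes an inhibitor of protein phosphatase 1 once protein kinase A phosphorylates it. It lies on chromosome 11 with 11 protein-coding genes between it and Lasp1 in the RefSeq gene order of GRCm38.p6, while Prkar1a and Akap10, on the same chromosome, have 298 and 588 genes between them and Lasp1. Ppp1r1b read 20987, 17742 and 18982 in knockout mucosa, against 20820, 18585 and 16472 in wild type mucosa. The groups overlapped, with a log2 difference of 0.05 (SE 0.14, interval -0.28 to 0.38). The dimmer probes read 1495 to 1586 in knockout mucosa and 1181 to 1780 in wild type mucosa (ILMN_2651660), and 899 to 1128 in knockout mucosa and 1015 to 1143 in wild type mucosa (ILMN_1253473, at background on 5 arrays). Their log2 differences were 0.01 and -0.15.

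The test was limma over the 22640 probes whose mean lay above that of the median probe, with Benjamini-Hochberg adjustment over all of them. Of the 29 probes 21 were kept. None of the 21 passed an adjusted p of 0.05 in limma (adjusted p of 0.994 to 0.999), where 0.00883% of all kept probes passed, and none had an unadjusted p under 0.05, where 1.73% of all kept probes did. Only the Prkaca probe ILMN_2833376 had groups that did not overlap, which is 1 of 21, where 7.19% of all kept probes had such groups and 6.17% had them with the knockout higher. The 95% interval of all 21 probes included 0 and stayed within a log2 difference of 1 in either direction, so a 2-fold change in intensity lay outside each interval. With background still in the values, the same intensity change stands for a larger transcript change in the dim probes of Pde4b, Pde4d and Prkar2a. With limma array weights 1 of the 21 passed, where 8.02% of all kept probes did: the Ppp1r1b probe ILMN_1253473 that was at background on 5 arrays (log2 difference -0.30, adjusted p = 0.046). That fit gave wild type replicate 2 a weight of 38.8, against at most 1.60 for any other array.

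**Figure D2:**
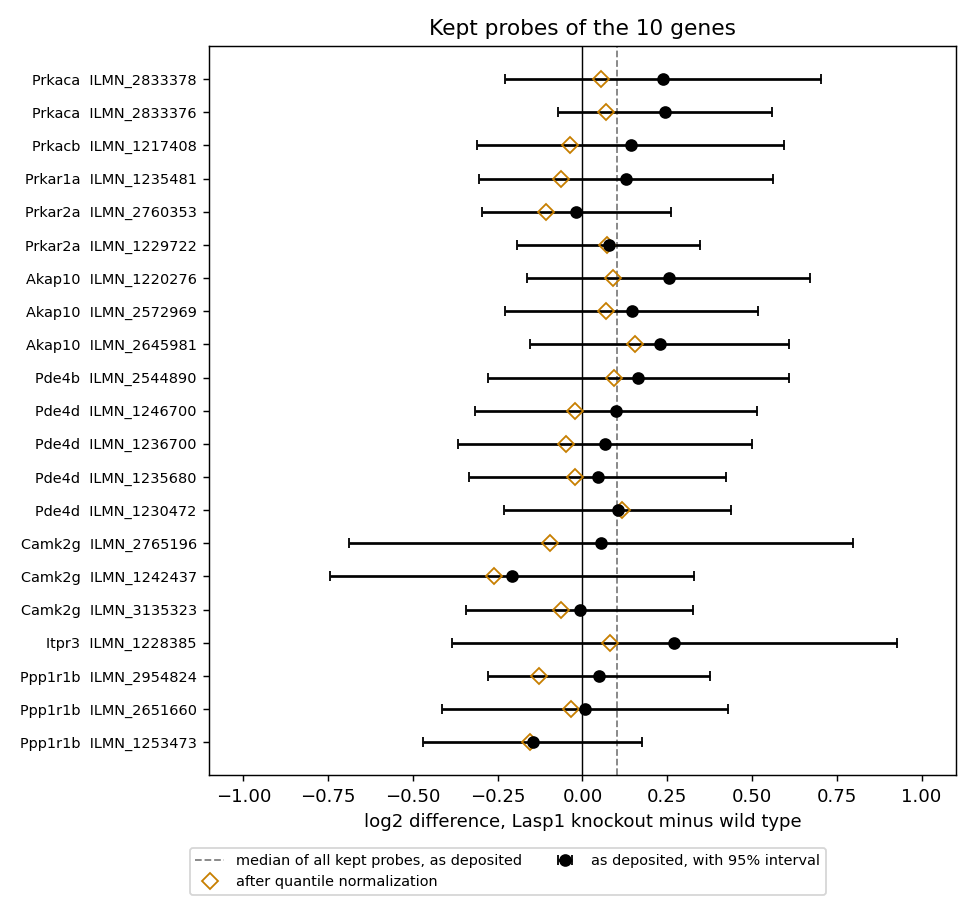
Log2 difference, Lasp1 knockout minus wild type (x axis), of the 21 kept probes, by gene (y axis): black points with 95% intervals from limma for the deposited values, open diamonds after quantile normalization, dashed line at 0.10, the median of all kept probes. All intervals cross 0, and most diamonds lie to the left of their points.

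The small differences leaned one way in the deposited values. Of the 21 kept probes 17 were higher in the knockout by their mean, with a median log2 difference of 0.10, but 76.9% of all 22640 kept probes were also higher, with the same median of 0.10. After quantile normalization 9 of the 21 were higher, with a median of -0.02, and 51.2% of all kept probes were, with a median of 0.0036. By the brightest probe, 9 of the 10 genes were higher as deposited and 4 once quantile normalized: Prkaca (0.06), Akap10 (0.09), Pde4b (0.09) and Itpr3 (0.08). Prkacb (-0.04), Prkar1a (-0.06), Pde4d (-0.02), Camk2g (-0.10) and Ppp1r1b (-0.13) turned sign. No direction is therefore given for the group.

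Wild type replicate 3 moved with this lean. As deposited, it was the lowest array for 9 of the 10 genes and for 64.9% of all kept probes. Once quantile normalized, it was lowest for 1 of the 10, Itpr3, and for 26.5% of all kept probes. Without it the median of the 21 probes was -0.01 and that of all kept probes -0.0039. This array also had the lowest unscaled median (50.8, against 64 on wild type replicate 1) and the pancreatic transcripts given above. The part of these in the differences was not tested.

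**Figure D3:**
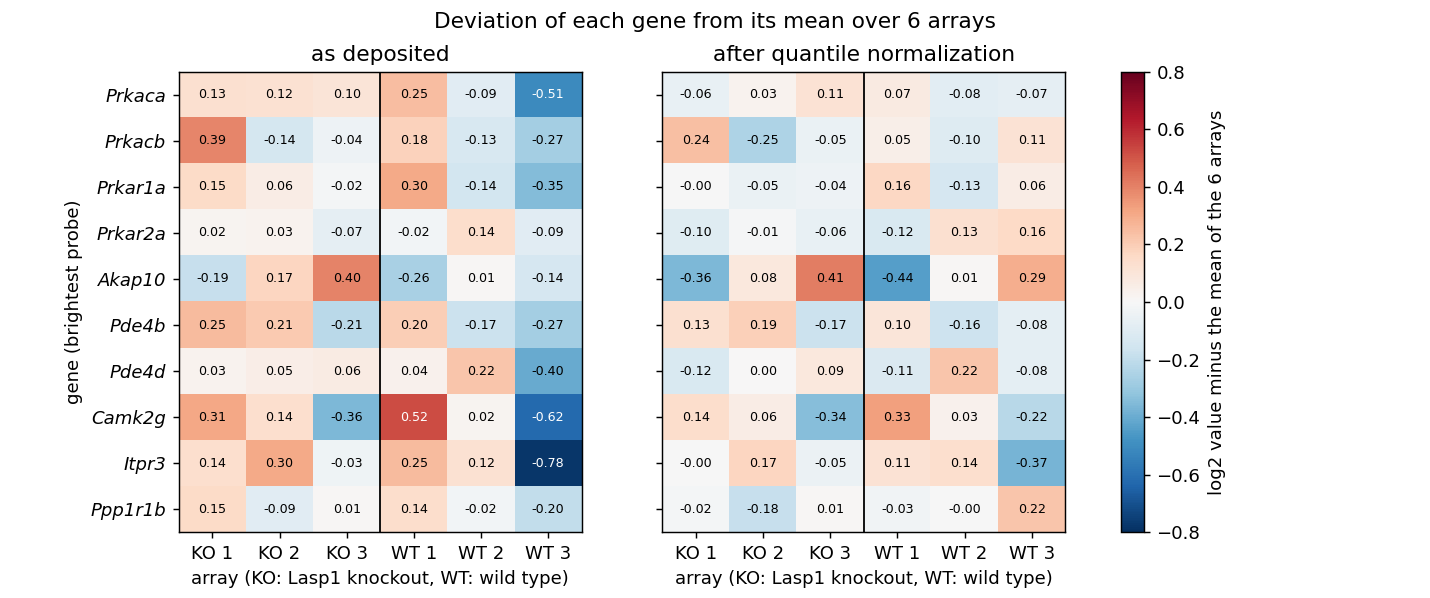
Log2 value of each gene's brightest probe minus its mean over the 6 arrays, for the Lasp1 knockout (left) and wild type (right) arrays, as deposited (left panel) and after quantile normalization (right panel). In the deposited values the wild type replicate 3 column is lowest for 9 genes, down to -0.78 for Itpr3, and after quantile normalization only Itpr3 is lowest there (-0.37).

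Within the arrays of title numbers up to 3 the log2 difference was above 0 for 6 of the 10 genes, with a range of -0.10 to 0.36. Within the arrays of higher numbers, where wild type replicate 3 is the only wild type array, it was above 0 for all 10, with a range of 0.07 to 0.91. That array was the lowest for 64.9% of all kept probes, so at least that share was above 0 there too. The exact share of all kept probes was not counted for either set, and neither count is read as particular to the 10 genes. Over the 10 brightest probes the median size of the genotype difference was 0.13 log2, beside a median SD over all 6 arrays of 0.24, and all kept probes had 0.12 and 0.21. Camk2g followed the brightness of the arrays, taken as the median before the authors' scaling: Pearson r was 0.92 over 6 arrays (two-sided exact permutation p = 0.00972, adjusted p = 0.0972 over 10 genes) and Spearman rho 0.94 (exact permutation p = 0.0167, adjusted p = 0.167). It was 0.80 without the 2 arrays farthest from the middle of that scale. Akap10 ran the other way (r = -0.62, exact permutation p = 0.204, adjusted p = 0.255, rho = -0.66 with exact permutation p = 0.175, adjusted p = 0.219), with -0.99 over the 4 arrays left. None of the 10 relations passed the adjustment, the other 8 had r of 0.45 to 0.86, and the median r over all kept probes was 0.54. This relation was chosen after the values were seen. Brightness also ran with the title number, with 58.5 to 64 for numbers up to 3 and 50.8 to 54.5 for the others, so these cannot be told apart, and 3 arrays per genotype are too few to give the relation within a genotype.

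**Figure D4:**
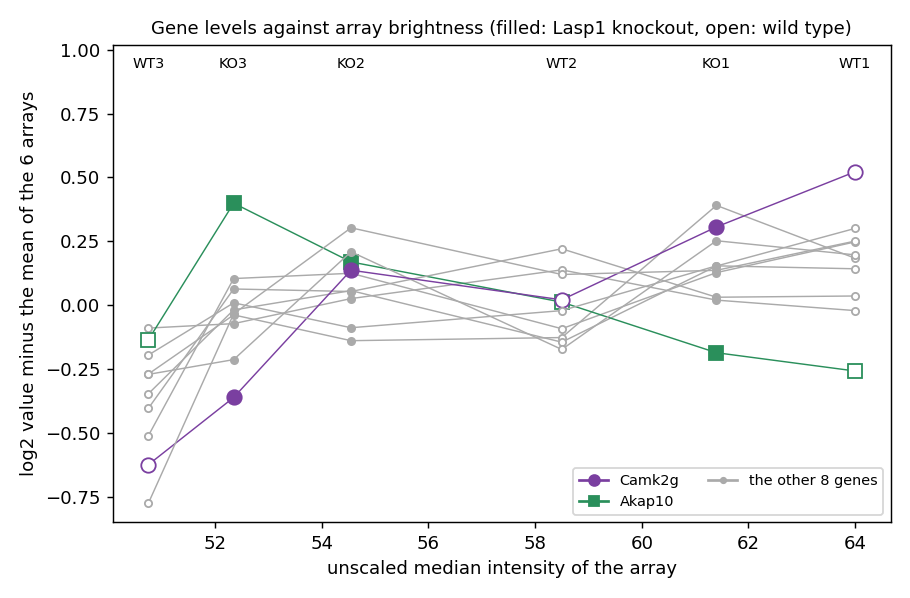
Log2 value of each gene's brightest probe minus its mean over the 6 arrays (y axis) against the unscaled median intensity of the array (x axis), with filled symbols for Lasp1 knockout and open symbols for wild type. Over the 6 arrays Camk2g (purple) has r = 0.92 and Akap10 (green) r = -0.62, and the other 8 genes (grey) have r of 0.45 to 0.86.

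The wider pathway showed the same picture. Of 79 other genes of cAMP and calcium signalling 74 were on the array and 63 were kept, among them adenylyl cyclases, G proteins, phospholipases, kinase inhibitors, phosphatases, calmodulins and calcium pumps. None of the 63 passed the limma test in either direction or had an unadjusted p under 0.05. Their median log2 difference was 0.11, with 54 higher and 9 lower, against 0.10 for all kept probes, and it was 0.01 after quantile normalization, with 34 higher. Prkcd and Pkig had groups that did not overlap, which is 2 of 63 beside the 7.19% of all kept probes. With array weights 3 of the 63 passed (Prkcd, Pkia and Ppp1cb), beside the 8.02% of all kept probes in that fit.

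The genes of smallest p on the higher side were Prkcd, Mcoln1, Ppp2ca and Plcb3. Prkcd, protein kinase C delta, read 55169, 72742 and 58120 in knockout mucosa, against 54324, 46821 and 38344 in wild type mucosa. The groups were separate by a narrow margin, and the log2 difference was 0.42 (SE 0.18, limma adjusted p = 0.994, exact permutation p = 0.1). After quantile normalization the Prkcd groups overlapped and the log2 difference was 0.23. Mcoln1, an endolysosomal calcium channel, differed by 0.27 (SE 0.14), Ppp2ca, the catalytic subunit of protein phosphatase 2A, by 0.34 (SE 0.19) and Plcb3, a phospholipase C, by 0.36 (SE 0.21). Pkig, an inhibitor of protein kinase A, read 6379 to 7235 in knockout mucosa and 5509 to 6379 in wild type mucosa, groups that met without overlap (log2 difference 0.21, SE 0.12). Once quantile normalized, the Pkig groups overlapped too (0.045). On the lower side Camk2b, the beta subunit of the same kinase as Camk2g, differed by -0.27 (SE 0.20), Akap1, an anchoring protein of mitochondria, by -0.22 (SE 0.28), Atp2b4, a plasma membrane calcium pump, by -0.08 (SE 0.13) and Pde3b, a phosphodiesterase, by -0.02 (SE 0.11). For Camk2b and Akap1 the groups overlapped as deposited and were separate after quantile normalization, with log2 differences of -0.45 for Camk2b and -0.41 for Akap1. That is again 2 of 63, where 6.36% of all kept probes had separate groups on that scale. The largest difference, that of the myosin light chain kinase Mylk (0.69, SE 0.46), is named for its size after it was seen. Mylk read 34911 on knockout replicate 1, against 11237 and 13021 on the other knockout arrays and 7807 to 15394 on the wild type arrays, and the 8 listed smooth muscle genes summed to 252808 on knockout replicate 1, against at most 111680 on any other array. The part of smooth muscle in this difference was not tested.

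**Figure D5:**
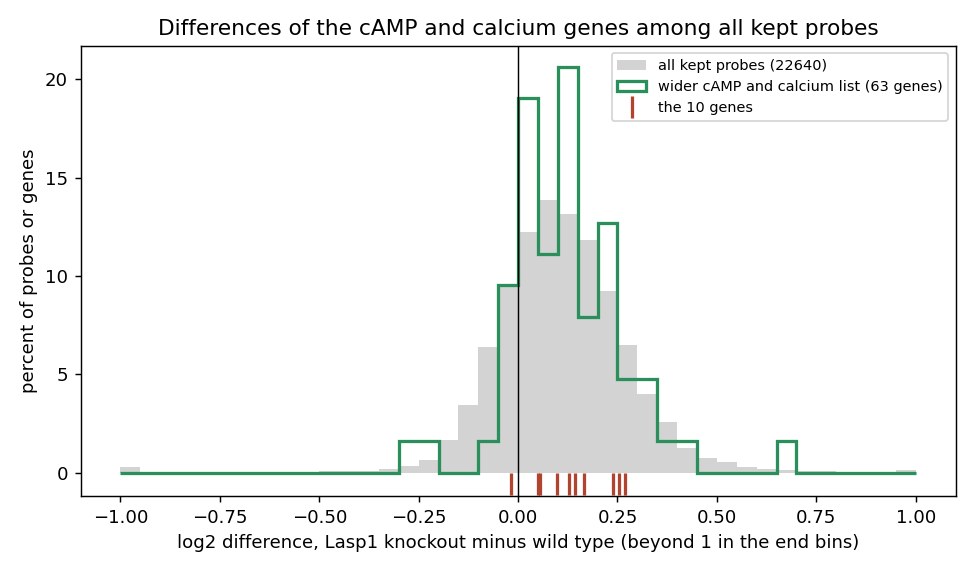
Distribution of the log2 difference, Lasp1 knockout minus wild type (x axis), for the 63 kept genes of the wider cAMP and calcium list (green outline), the 10 genes (red ticks) and all 22640 kept probes (grey), in percent (y axis). The 10 genes run from -0.02 to 0.27 and the list from -0.27 to 0.69. Medians are 0.13 for the 10 genes, 0.11 for the list and 0.10 for all kept probes.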

How the data were processed

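The data are 1 deposited table of linear probe intensities from 6 Illumina arrays, 3 of Lasp1 knockout and 3 of wild type fundic mucosa. Per the labels' protocols, total RNA was extracted with a tissue kit and made into biotinylated cRNA with the Ambion MessageAmp kit. From the values, the intensity of each array was scaled to a median of 1000. The lowest value on an array was 542 to 572, so background remained in them. Whether some background was removed at an earlier step cannot be seen from the values. No source used here names the scanner, its software or a filter. Undoing the scale put values below 1500 on steps of 0.05 (tolerance 0.02 of a step) and gave the unscaled medians. The 3 arrays per group limit the precision.

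Probes were named from the platform annotation: 34885 had 1 gene symbol, 18 several and 10378 none, and 34807 were found through their Entrez number in RefSeq's GRCm38.p6 genes. All 29 probes of the 10 genes matched. Intensities were log2 transformed as deposited. Probes with a mean above that of the median probe (an intensity of 991) were kept, and knockout was compared with wild type with limma 3.58.1 (lmFit, then eBayes, two-sided) under R version 4.3.3, after a check on simulated data. Single probes also had an exact permutation test. A gene is given by its brightest probe, with its others beside it. Named genes of the wider list are the 4 of smallest p in each direction, and the genes like the most variable member are the 3 nearest. The members, lists and alternatives were chosen with earlier results of these data known.

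The main fit did not pair the arrays by replicate number. Deviations of same-numbered arrays correlated at 0.04, -0.30 and 0.53, and those of the other pairs at -0.56 to 0.55. Centring on 3 arrays per genotype ties these values together, so they cannot settle whether the arrays were paired. Alternatives were 3 normalizations, 2 filters, an intensity trend, array weights, 2 blocks, the mean of a gene's probes and leaving out each array. Leaving out both squamous or both pancreatic arrays was added after seeing the data. Promoter sequences are RefSeq's of GRCm38.p6. Python 3.11.15 and matplotlib 3.10.9 made the figures.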

Additional observations from a re-analysis of the deposited data

How the results depend on the processing

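Of 178 values of the 10 genes under the alternatives, 138 kept their sign and none passed the threshold (lowest limma adjusted p 0.108, Prkaca). Part of the 138 could not have turned. Both filters, the intensity trend and the replicate block leave the log2 difference of a probe as it is. So does the mean of a gene's probes where only 1 was kept (Itpr3, Pde4b, Prkacb and Prkar1a). Signs turned in 40. With quantile normalization, cyclic loess, and normexp with quantile normalization, the log2 differences were -0.095, -0.10 and -0.090 for Camk2g, -0.021, -0.026 and -0.019 for Pde4d, -0.13, -0.13 and -0.13 for Ppp1r1b, -0.038, -0.042 and -0.038 for Prkacb, and -0.062, -0.058 and -0.062 for Prkar1a. Array weights gave -0.035 for Camk2g, -0.16 for Pde4d and -0.0025 for Ppp1r1b. The title-number block gave 0.014 for Prkar2a. The mean of a gene's probes gave -0.054 for Camk2g, -0.030 for Ppp1r1b and 0.029 for Prkar2a. Without both squamous arrays, values were -0.061 for Camk2g, -0.013 for Ppp1r1b, -0.046 for Prkacb and 0.032 for Prkar2a. Without both pancreatic arrays, they were -0.050 for Camk2g, -0.086 for Pde4d and -0.028 for Ppp1r1b. Leaving out 1 array gave ranges of -0.24 to 0.33 for Camk2g, -0.050 to 0.46 for Itpr3, -0.079 to 0.23 for Pde4d, -0.036 to 0.13 for Ppp1r1b, -0.018 to 0.27 for Prkacb, -0.014 to 0.31 for Prkar1a and -0.067 to 0.047 for Prkar2a. The cause was not tested.

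Probes passing over the array numbered 0 with the higher filter (fewer probes tested), with the replicate block, and without both squamous or both pancreatic arrays, 1816 with array weights, and 0 to 3 on leaving out 1 array. With array weights 1 member probe and 3 genes of the wider list passed. The replicate number as a block called 0 probes in limma, so 0 member probes and 0 genes of the wider list. At an unadjusted limma p under 0.05 it called 753, against 392 in the main fit. It left every log2 difference as it was, since the design is balanced, but not the errors. The SE of Camk2g was 0.14 with the block, against 0.31 in the main fit, while that of Prkar2a was 0.12 in both. Of the 10 genes, 2 had groups that did not overlap without both squamous arrays (27.0% of all kept probes) and 1 without both pancreatic arrays (21.8%). Leaving out 1 array gave 0 to 2: 2 without wild type replicate 1 (26.3%), 1 without knockout replicate 1 (21.0%), 1 without knockout replicate 3 (14.7%) and 0 without the others (10.8% to 12.7%). Background near 1000 limits what the dim probes of Pde4b and Prkar2a can show.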
